A study of Mus musculus with 7 samples.

Results

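Border-associated macrophages are described here through 10 marker genes, Mrc1, Cd163, Lyve1, Pf4, Cbr2, Siglec1, Ms4a7, Folr2, Clec4n and Clec12a, among 19505 genes measured on expression arrays. Each marker was found by its symbol in the probe annotation, and each had a single probe set. The arrays carried RNA of brain microglia from mice on the C57BL/6 strain, sorted as viable cells positive for CD45 and CD11b. All 7 samples carried the 5xFAD transgenes, and the comparison set 3 samples of genotype 5xFAD;B2m+/+ (wildtype) against 4 of genotype 5xFAD;B2m–/– (knockout). The 5xFAD transgenes encode mutant human amyloid precursor protein and presenilin under the neuronal Thy1 promoter, and the mice form amyloid plaques. B2m encodes beta-2-microglobulin, which pairs with every classical MHC class I heavy chain. Age, sex, litter and the source of the B2m allele are not given in the sources used here. No label says that the arrays came from separate animals, so each p-value reflects sample-to-sample spread that may be partly technical.

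Border-associated macrophages live in the meninges, around brain vessels and in the choroid plexus, outside the brain tissue that microglia occupy. They share CD45, CD11b and the receptor Csf1r with microglia, so a gate on CD45 and CD11b alone can hold both cell types. They are known for endocytic and scavenger receptors, and for taking up material from blood and cerebrospinal fluid. Most of the 10 markers are low or absent in resting microglia, and several are used to tell the border cells from them.

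The unit was log2 expression, made by the authors with RMA, a procedure that corrects background, normalizes between arrays and summarizes the probes of a set. A difference of 1 on this scale is a doubling. Levels of different probe sets cannot be ranked against each other, so each marker was compared across arrays only. As a rough guide to background, each value was placed among the 5222 negative control rows of its own array, whose 95th percentile lay between 9.35 and 9.55. The arrays correlated at 0.946 to 0.98 over the tested genes. Markers of the labelled cell type, Tmem119 (11.78 to 12.17), P2ry12 (12.89 to 13.11) and Sall1 (10.44 to 11.03), lay above that percentile, used as the background guide, in all 7 arrays. The neutrophil genes Camp (11.09 to 12.71), S100a8 (10.16 to 12.44) and S100a9 (10.47 to 12.16) did so too. Passing the guide therefore does not show that the samples held microglia alone. Of 14 tested homeostatic microglia genes, 0 reached an unadjusted p under 0.05 between genotypes in limma, with a median difference of -0.0044. B2m was 13.39 to 13.42 in the wildtype and 10.24 to 10.56 in the knockout arrays (difference -2.99, limma adjusted p = 1.54e-07).

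Of the 10 markers, 0 passed the test between genotypes in limma. Genes were tested in limma when they exceeded the array median of all named genes in 3 or more arrays, and called at a Benjamini-Hochberg adjusted p under 0.05. This filter kept 8 of the 10 markers, and Clec4n and Clec12a fell under it. Over all 10004 tested genes 0.05% were called. At an unadjusted p under 0.05, limma counted 1 of the 8 tested markers, Siglec1, where its value was lower in knockout samples. All tested genes reached that p in 11.9% of cases, 3.54% with a lower and 8.39% with a higher value. Siglec1 was also the only tested marker whose genotypes did not overlap, where 10.9% of tested genes did not and 3.8% were separated with the knockout lower. Over all 10 markers 5 differences lay above 0 and 5 below, with a median of 0.0019 knockout minus wildtype, beside -0.028 over all named genes. Over the 8 tested markers 3 lay above 0 and 5 below, with a median of -0.070, beside -0.0055 over all tested genes. The arrays measure RNA of the whole sorted sample, so fewer border macrophages and less RNA per cell cannot be told apart.

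**Figure D1:**
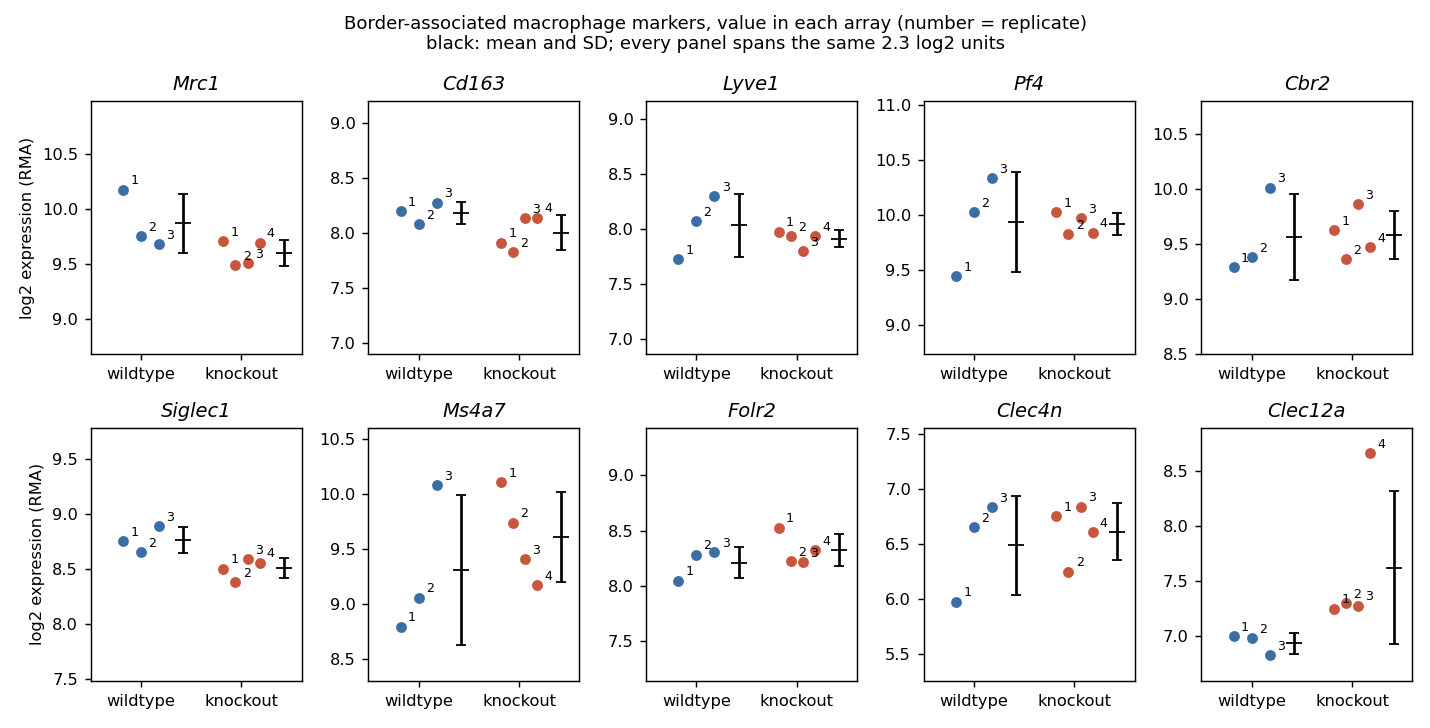
Log2 expression of the 10 markers in each array, 3 wildtype (blue) and 4 knockout (red), numbered by replicate, with the mean and SD of each genotype in black. The genotypes overlap for 8 markers, and Siglec1 and Clec12a are the exceptions; the highest Clec12a value is knockout replicate 4 at 8.66.

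Stretches of 200 bases upstream of the transcript start are shown for Mrc1, Pf4, Cbr2 and Clec12a, the 4 markers whose stretch held the core described below. They come from RefSeq on GRCm38.p6, on each gene's own strand: Mrc1 from chr2:14229214-14229413 (+), Pf4 from chr5:90772235-90772434 (+), Cbr2 from chr11:120732022-120732221 (-) and Clec12a from chr6:129350044-129350243 (+). Capitals mark the PU-box core GAGGAA, or its reverse complement TTCCTC, which is the core recognized by PU.1, the master transcription factor of macrophages and microglia.
Mrc1: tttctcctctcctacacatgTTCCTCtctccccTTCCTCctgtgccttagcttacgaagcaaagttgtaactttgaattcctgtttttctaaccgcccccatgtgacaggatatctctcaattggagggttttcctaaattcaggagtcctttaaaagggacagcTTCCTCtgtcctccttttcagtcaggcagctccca
Pf4: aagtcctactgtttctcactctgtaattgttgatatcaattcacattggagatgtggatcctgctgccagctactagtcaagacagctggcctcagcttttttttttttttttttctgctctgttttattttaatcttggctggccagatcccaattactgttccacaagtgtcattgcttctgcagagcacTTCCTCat
Cbr2: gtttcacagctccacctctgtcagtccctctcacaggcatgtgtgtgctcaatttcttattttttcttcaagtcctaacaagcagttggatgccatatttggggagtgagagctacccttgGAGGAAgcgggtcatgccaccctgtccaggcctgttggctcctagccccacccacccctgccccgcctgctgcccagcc
Clec12a: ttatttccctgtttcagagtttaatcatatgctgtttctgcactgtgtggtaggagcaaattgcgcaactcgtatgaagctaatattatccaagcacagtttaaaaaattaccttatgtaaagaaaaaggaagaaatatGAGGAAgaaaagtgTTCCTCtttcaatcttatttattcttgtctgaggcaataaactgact

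RefSeq gave 9 promoter windows of 300 bases for 7 of the 10 markers, and 5 of the 9 windows held the core on either strand. Of all 32851 windows in RefSeq, the core was held by 28.3%. Mrc1 had 3 matches, Clec12a 2, Pf4, Cbr2 and Ms4a7 1 each, and Cd163 and Folr2 0. The Ms4a7 match lay after the transcript start, and upstream stretches without a match are not shown. A match is a description of letters and not a binding site, and no binding was measured. Spi1, which encodes PU.1, belonged to a list of CSF1 and IL-34 receptor signalling genes that keep macrophages alive. In that list 0 of 8 tested genes reached an unadjusted p under 0.05 in limma in either direction, 0 were called, and the receptor Csf1r, chosen after its values were seen, differed by -0.065 (SE 0.096).

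Mrc1, Siglec1, Cd163 and Lyve1, receptors for uptake or adhesion, had the most negative differences between knockout and wildtype samples, and none was called. Siglec1 (Entrez Gene 20612) encodes sialoadhesin, a sialic acid-binding receptor of macrophages that interferon induces. Its values were 8.76, 8.66 and 8.89 in the wildtype and 8.50, 8.38, 8.59 and 8.56 in the knockout arrays. All 4 knockout values lay below all 3 wildtype values, by a margin of less than 0.1 between the nearest arrays. The difference was -0.26 (SE 0.10, 95% confidence interval -0.49 to -0.028, unadjusted p = 0.0312, limma adjusted p = 0.386). It kept its sign in each of the 17 alternatives that retained it, with adjusted p from 0.288 to 0.684. Leaving arrays out could not turn that sign, because the genotypes did not overlap. Several other settings left the difference unchanged by design. All 7 values ranked at the 87.0th to 92.0th percentiles of the control rows, under the background guide, so a fold would not be meaningful.

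Siglec1 lies on chromosome 2, as B2m does, with 53 tested genes between them. In those 53 genes, 9 reached an unadjusted p under 0.05 in limma, beside 11.9% of all tested genes, and 9 did not overlap between genotypes, beside 10.9%. Among the 40 tested genes next to Siglec1, 20 on each side, 3 reached that p. Whether sequence carried with the knockout allele reaches Siglec1 was not tested.

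Mrc1 (Entrez Gene 17533), the mannose receptor CD206 and the marker most used to stain border macrophages, lies on the same chromosome with 403 tested genes between it and B2m. It was 10.17, 9.75 and 9.68 in the wildtype and 9.71, 9.49, 9.51 and 9.69 in the knockout arrays. Wildtype replicate 1 stood above the other 6 arrays, and the genotypes overlapped between wildtype replicate 3 and knockout replicates 1 and 4. The difference was -0.27 (SE 0.13, limma adjusted p = 0.466), or 0.830-fold with a 95% confidence interval of 0.675 to 1.02. Without wildtype replicate 1 it was -0.12 (adjusted p = 0.825).

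Cd163 (Entrez Gene 93671) encodes the scavenger receptor for haemoglobin bound to haptoglobin. It was 8.20, 8.08 and 8.28 in the wildtype and 7.91, 7.82, 8.13 and 8.14 in the knockout arrays. Its lowest values were knockout replicates 1 and 2, while the other knockout arrays overlapped with wildtype replicate 2. The difference was -0.18 (SE 0.11, limma adjusted p = 0.552). Lyve1 (Entrez Gene 114332), a hyaluronan receptor of perivascular macrophages and of lymphatic vessels, was 7.73, 8.08 and 8.30 in wildtype arrays. The knockout arrays lay within that range at 7.98, 7.94, 7.80 and 7.94. The difference of -0.12 (SE 0.13, limma adjusted p = 0.754) was smaller than the wildtype SD of 0.29. Leaving out wildtype replicate 3 gave 0.011, and leaving out wildtype replicate 1 gave -0.28. Prox1, a lymphatic endothelial factor chosen after its values were seen, differed by -0.081 (SE 0.13).

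Folr2 (Entrez Gene 14276), folate receptor beta, went the other way in size but not past its error. It was 8.04, 8.28 and 8.30 in the wildtype and 8.53, 8.22, 8.21 and 8.32 in the knockout arrays, a difference of 0.11 (SE 0.12, limma adjusted p = 0.737). The genotypes overlapped, with wildtype replicate 1 lowest and knockout replicate 1 highest. Without wildtype replicate 1 the difference was 0.029, and without knockout replicate 1 it was 0.044. Cd163, Lyve1 and Folr2 ranked at the 78.3rd to 88.6th percentiles of the control rows in all 7 arrays, under the background guide, so a small shift in them is hard to measure.

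**Figure D2:**
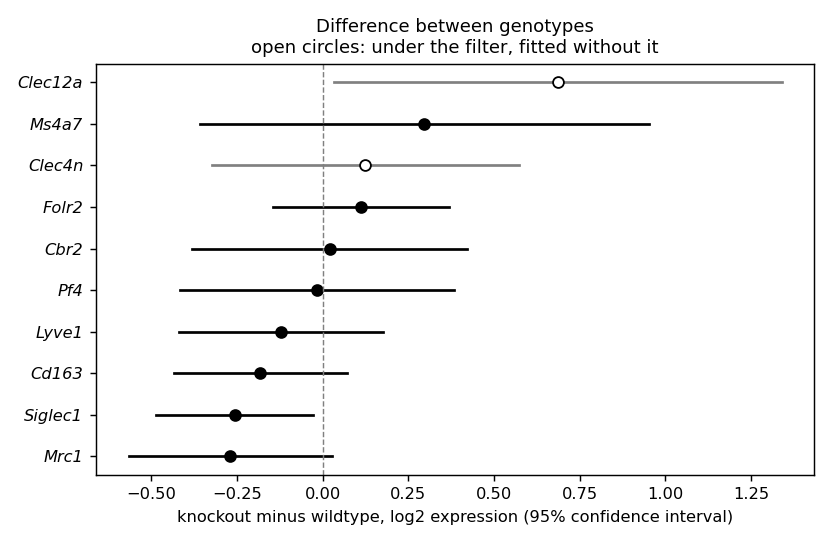
Knockout minus wildtype difference in log2 expression for the 10 markers, with 95% confidence intervals from limma; open circles mark Clec4n and Clec12a, fitted without the filter. Intervals exclude 0 for Siglec1 (-0.49 to -0.028) and Clec12a (0.033 to 1.34), and neither passed correction over all genes.

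Pf4 and Cbr2 had the differences closest to 0. Pf4 exceeded the background guide in all 7 arrays and Cbr2 in 3. Pf4 (Entrez Gene 56744) encodes platelet factor 4, a chemokine that border macrophages make and that platelets store. It was 9.44, 10.03 and 10.33 in the wildtype and 10.03, 9.83, 9.97 and 9.84 in the knockout arrays. The difference was -0.017 (SE 0.18, limma adjusted p = 0.982), a 0.989-fold value with a 95% confidence interval of 0.750 to 1.30. Cbr2 (Entrez Gene 12409), a carbonyl reductase, was 9.29, 9.38 and 10.01 in the wildtype and 9.63, 9.36, 9.86 and 9.47 in the knockout arrays. Its difference was 0.021 (SE 0.18, limma adjusted p = 0.976). For both genes the knockout arrays lay inside the wildtype range.

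Ms4a7 (Entrez Gene 109225), a four-span membrane protein used to tell border macrophages from microglia, varied more between samples than between genotypes. It was 8.80, 9.06 and 10.08 in the wildtype and 10.11, 9.74, 9.41 and 9.17 in the knockout arrays. Both genotypes held values from near 9 to above 10. The difference of 0.30 (SE 0.30, limma adjusted p = 0.722) lay within a wildtype SD of 0.68 and a knockout SD of 0.41. Only 0.81% of tested genes had a larger standard error. Leaving out wildtype replicate 3 gave 0.68 (adjusted p = 0.230). Leaving out wildtype replicate 1 or 2 gave 0.039 or 0.17, knockout replicate 1 gave 0.13, and wildtype replicate 1 with knockout replicate 4 gave 0.18.

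Other MS4A genes, which sit in the same chromosomal cluster, were set beside it. The list of the family holds Ms4a7 too. Of its 12 measured members 8 differences lay above 0 and 4 below. Of these members 5 were tested, Ms4a7 among them, and all 5 differences lay above 0. In limma 0 were called, while 3 reached an unadjusted p under 0.05, each with a higher value, as 8.39% of all tested genes did. Their median was 0.30, beside -0.0055 over all tested genes. Ms4a4c, also a monocyte marker, was 8.16 to 8.99 in the wildtype and 9.28 to 9.48 in the knockout arrays (difference 0.69, SE 0.17, adjusted p = 0.315). Ms4a6d differed by 0.30 (SE 0.099, adjusted p = 0.343), Ms4a6b by 0.35 (SE 0.12, adjusted p = 0.348) and Ms4a6c by 0.28 (SE 0.16, adjusted p = 0.521). Ms4a4c and Ms4a6d did not overlap between genotypes. Ms4a4c exceeded the background guide in no array, Ms4a6d in 7, Ms4a6b in 6 and Ms4a6c in 4. How far probes of these related genes read each other was not tested.

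The spread among wildtype samples was wide for some markers and narrow for others. The range over the 3 wildtype arrays was 1.28 for Ms4a7, 0.89 for Pf4, 0.86 for Clec4n, 0.72 for Cbr2, 0.57 for Lyve1 and 0.50 for Mrc1, where the median range over tested genes was 0.26. Among all named genes 0.19% had a larger wildtype range than Ms4a7 and 1.28% a larger one than Pf4. In contrast, Siglec1 (0.23), Cd163 (0.20), Folr2 (0.26) and Clec12a (0.17) had ranges at or below that median. In the knockout arrays Pf4 and Lyve1 spanned only 0.20 and 0.18.

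Wildtype replicates 1 and 3 were at the ends of all 6 wide ranges, in the reverse order for Mrc1, a pattern noticed in the values. Ms4a7, Pf4, Clec4n, Cbr2 and Lyve1 were each lowest in wildtype replicate 1 among the wildtype arrays and highest in wildtype replicate 3, with gaps of at least 0.5. Over all named genes 2.5% had a gap that large in that direction and 3.51% in the opposite one. Cd209f, a lectin of the same border cells from the list of further border macrophage genes and chosen after its values were seen, was 7.94, 8.53 and 9.41. That gap of 1.47 exceeded the gap of every other tested gene. Only in wildtype replicate 3 did Cd209f exceed the background guide. Mrc1 ran the other way, as did Stab1, a scavenger receptor also chosen after its values were seen, at 10.62, 10.21 and 10.17. Over all 7 arrays, wildtype replicate 1 was the lowest for 6 of the 10 markers and wildtype replicate 3 the highest for 5, against 17.5% and 10.1% of tested genes.

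**Figure D3:**
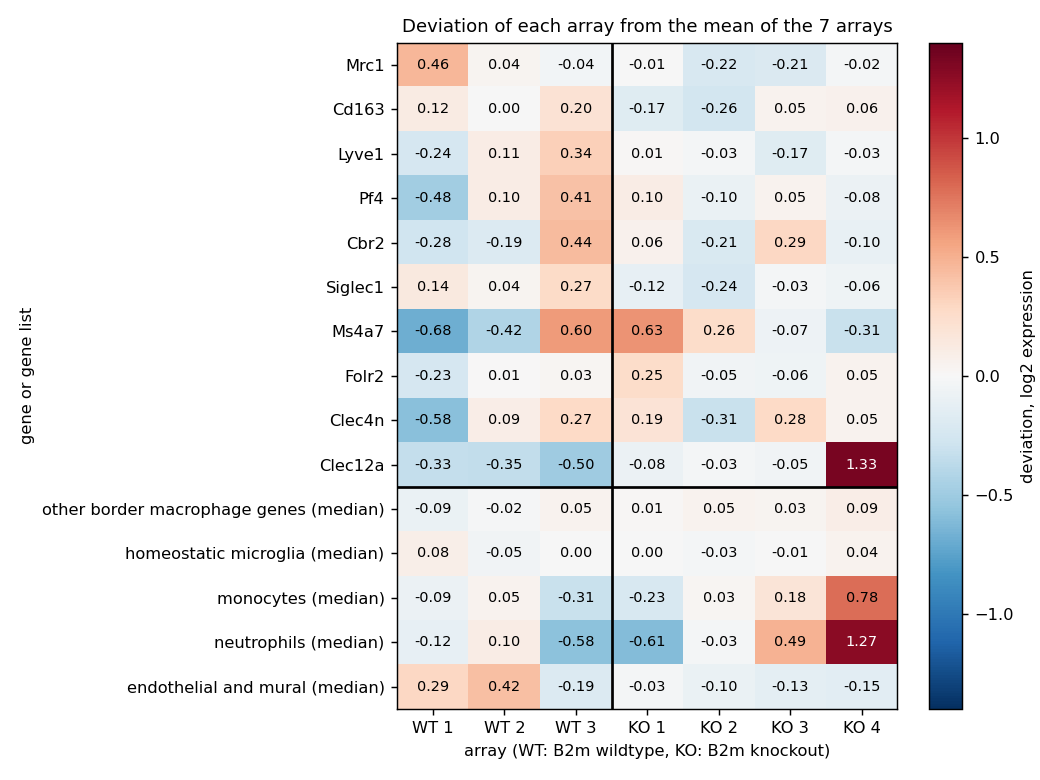
Deviation of each array from the mean of the 7 arrays, in log2 units, for the 10 markers (above the line) and for the median of 5 other lists (below it). Wildtype replicate 1 is low and wildtype replicate 3 high for Lyve1, Pf4, Cbr2, Ms4a7 and Clec4n, while the homeostatic microglia list stays between -0.05 and 0.08.

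Gene span moved with this order. The values of wildtype replicate 1 deviated upward in long genes and downward in short ones, with Spearman's rho of 0.361 between gene span and deviation over 10004 tested genes. Over the 10 markers the same rho was 0.697, and it was -0.697 for wildtype replicate 3. Over all tested genes the rho was 0.136 in wildtype replicate 2 and -0.149 in wildtype replicate 3. It was -0.254 to -0.197 in knockout replicates 1 to 3 and 0.222 in knockout replicate 4. Over the markers these knockout values were -0.491 to -0.248 and 0.527. The points of each rho share 1 array and genes are not independent replicates, so no p is given. Mrc1 is the longest of the markers, at 103 kb in the reference annotation, and Pf4 (0.949 kb) and Cbr2 (2.54 kb) the shortest. With the span trend removed, the gap between wildtype replicates 3 and 1 was 1.26 for Ms4a7, 0.85 for Clec4n, 0.74 for Pf4, 0.60 for Cbr2, 0.54 for Lyve1 and -0.37 for Mrc1. The differences between genotypes were then -0.28 for Siglec1 and -0.22 for Mrc1, and 0 markers were called. Endothelial and mural markers also differed between these arrays: the list's median deviation was 0.29 in wildtype replicate 1, 0.42 in replicate 2 and -0.19 in replicate 3. Of 13 tested genes in that list, all 13 lay below 0 in knockout minus wildtype, as 51.4% of tested genes did, and 4 reached an unadjusted p under 0.05 in limma, as 3.54% of tested genes did with a lower value. The median over its 14 measured genes was -0.22, with 0 called. It was -0.47 with 1 gene called without wildtype replicate 3, and -0.094 without wildtype replicate 2. Their part in the marker values was not tested.

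**Figure D4:**
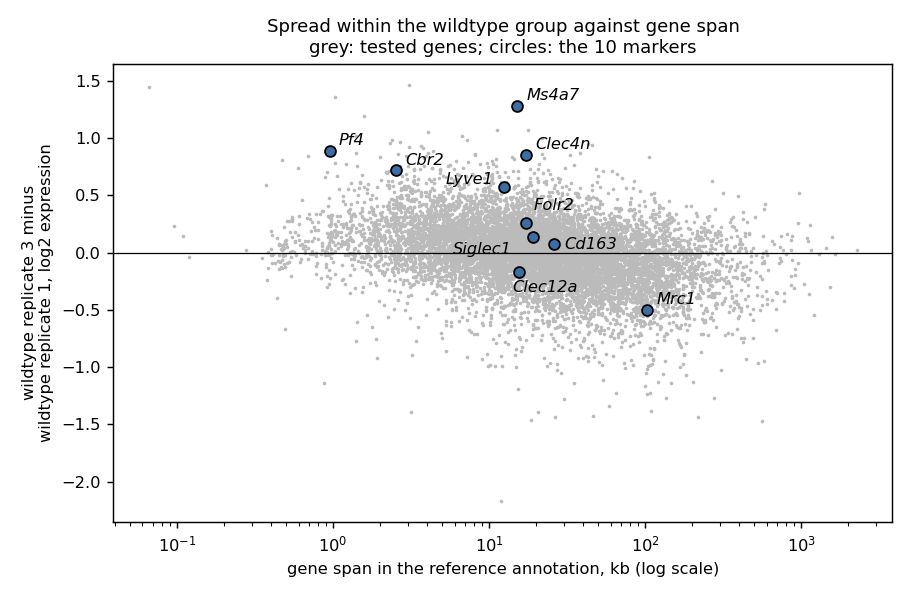
Wildtype replicate 3 minus wildtype replicate 1 in log2 expression against gene span (log scale, kb) for the tested genes (grey) and the 10 markers (circles). Pf4 at 0.949 kb lies at 0.89 and Mrc1 at 103 kb at -0.50, while Ms4a7 and Clec4n stand above most genes of similar span.

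The C-type lectin receptors among the markers were those under the filter. Clec4n (Entrez Gene 56620) encodes Dectin-2, a receptor for fungal mannans. Its values were 5.98, 6.65 and 6.83 in the wildtype and 6.75, 6.25, 6.84 and 6.61 in the knockout arrays, within the 44.9th to 63.1st percentiles of the control rows. At that level no expression could be told from background, and the difference of 0.12 (SE 0.20, limma without the filter, adjusted p = 0.895) is a description only.

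Clec12a (Entrez Gene 232413), an inhibitory lectin receptor that binds uric acid crystals, is found on monocytes, neutrophils and dendritic cells as well as on border macrophages. It was 6.999, 6.98 and 6.83 in the wildtype and 7.25, 7.30, 7.28 and 8.66 in the knockout arrays. Knockout replicate 4 stood 1.36 above the next array, and the genotypes did not overlap, where 9.06% of all named genes did not. The difference was 0.69 (SE 0.30, limma without the filter, unadjusted p = 0.0413, adjusted p = 0.531). In that fit 9.1% of genes reached an unadjusted p under 0.05 and 0.0256% were called. Without knockout replicate 4 it was 0.34 (adjusted p = 0.311). Only that array brought Clec12a to the 88.5th percentile of the control rows, and the other 6 lay between the 63.0th and 71.1st.

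Monocyte and neutrophil markers were also highest in knockout replicate 4. The median deviation over 11 measured neutrophil genes was 1.27 there and -0.61 to 0.49 in the other arrays. For 13 measured monocyte genes it was 0.78, against -0.31 to 0.18 elsewhere. The mean level of the neutrophil list ran from 10.20 to 10.87 in wildtype samples and 10.09 to 11.89 in the knockouts, and that of the monocyte list from 8.71 to 9.15 and 8.88 to 9.83. Ccr2, the chemokine receptor of classical monocytes, chosen after its values were seen, was 8.51 in knockout replicate 4 and 6.81 to 7.58 in the others, below the background guide throughout. Plac8 was 11.42 there and 9.26 to 10.81 in the others. Between genotypes 0 of 11 tested genes were called in either list. The median difference was 0.55 for the neutrophil list, with 10 genes above 0 and 1 below. For the measured monocyte genes it was 0.30, with 9 above and 4 below, where 57.7% of all named genes lay below 0. With single replicates left out, the neutrophil median ran from 0.10 to 0.91 and the monocyte median from 0.036 to 0.42. An unadjusted p under 0.05 in limma was reached by 3 monocyte genes and 1 neutrophil gene, each with a higher value. Over all tested genes 8.39% did so. The part of monocyte and neutrophil markers in the Clec12a value was not tested.

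**Figure D5:**
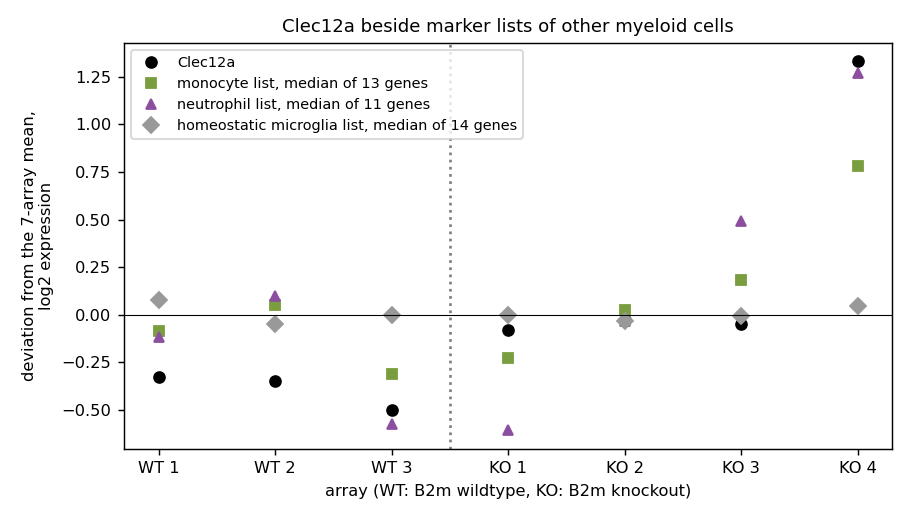
Deviation from the mean of the 7 arrays, in log2 expression, for Clec12a and for the median of 3 marker lists, by array. Knockout replicate 4 is highest for Clec12a (1.33), the neutrophil list (1.27) and the monocyte list (0.78), while the homeostatic microglia list is at 0.044.

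Some related lectin receptors were highest in that array too. Clec4d was 9.96 in knockout replicate 4 and 7.43 to 8.52 elsewhere, and Clec4e, chosen after its values were seen, was 10.34 against 7.93 to 9.49. Both are receptors of activated monocytes and neutrophils. Over 11 tested lectin receptor genes 0 were called in limma. In the same fit 2 reached an unadjusted p under 0.05, both with higher values, as 8.39% of all tested genes did. The list's median difference was 0.26 over the 11 tested genes, against 0.14 over the 16 measured genes. Clec4b1 had the smallest p, with a difference of 0.47 (SE 0.13, adjusted p = 0.315), followed by the platelet and myeloid receptor Clec1b at 0.49 (SE 0.19, adjusted p = 0.383). Clec1a differed by 0.26 (SE 0.15). Clec4b1, Clec1b and Clec1a exceeded the background guide in no array, Clec4d in 1 and Clec4e in 2. Clec1b and Clec1a were highest in knockout replicate 2, and Clec12b, chosen after its values were seen, in wildtype replicate 1. The list's median deviation was 0.13 in knockout replicate 4 and -0.20 to 0.050 in the other arrays.

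A longer list of 30 further genes of border macrophages gave no called gene either. Of 27 measured, 15 were tested, 8 differences lay above 0 and 7 below, and the median was 0.067 over those 15 and 0.013 over the 27 measured genes. In limma 0 were called, and 2 reached an unadjusted p under 0.05, both with higher values, as 8.39% of all tested genes did. These were Ms4a6d, given with its family, and Wfdc17, a small secreted protein of activated macrophages, with 8.04 to 8.74 in wildtype samples and 8.77 to 9.31 with B2m knocked out (difference 0.52, SE 0.18, adjusted p = 0.348). Cp, the copper-binding ferroxidase ceruloplasmin, differed by -0.40 (SE 0.19, adjusted p = 0.444), and the activating receptor Lilra5 by 0.27 (SE 0.14, adjusted p = 0.472). F13a1, the coagulation factor XIII A chain and a marker of border macrophages chosen after its values were seen, differed by 0.17 (SE 0.16). Of the 27 measured genes, 19 exceeded the background guide in no array, Wfdc17, Cp, Lilra5 and F13a1 among them.

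Scavenger receptors as a class had differences on both sides of 0. Of 6 tested genes 0 were called in limma. In the same fit 1 reached an unadjusted p under 0.05 with a higher value, as 8.39% of all tested genes did. The list's median was 0.099 over the 6 tested and -0.017 over the 14 measured genes. Olr1, a receptor for oxidized lipoprotein, differed by 0.38 (SE 0.14, adjusted p = 0.356). The endocytic receptor Lrp1 differed by -0.19 (SE 0.12), the collagen receptor Mrc2, a relative of Mrc1, by 0.19 (SE 0.13) and the lipoprotein receptor Scarb1 by 0.12 (SE 0.16). Olr1 exceeded the background guide in no array, Scarb1 in 2, and Lrp1 and Mrc2 in 7.

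Markers of tissues that border macrophages live in were examined beside the 10 genes. Fibroblast and meningeal genes had differences below 0 for all 9 measured members, with a median of -0.22 that was -0.11 without knockout replicate 4. Of these 9 genes, 8 exceeded the background guide in no array, Dcn and Igf2 among them. None of the 3 tested reached an unadjusted p under 0.05 in limma, among them the matrix gene Dcn at -0.76 (SE 0.35) and Igf2 at -0.25 (SE 0.11). Choroid plexus genes lay below 0 for all 8 measured members, with a median of -0.15 and 0 of 4 tested at an unadjusted p under 0.05. That median was -0.063 without wildtype replicate 2 and -0.093 without knockout replicate 4. Of the 8 choroid plexus genes, 7 exceeded the background guide in no array. Ttr, the transthyretin made by choroid plexus epithelium, was above the background guide in all arrays at 11.65 to 11.83 in wildtype and 11.14 to 11.86 in knockout samples. Over all named genes 57.7% lay below 0. T and natural killer cell genes, B cell genes and mast cell genes had no member above the background guide in any array. In these 3 lists, differences also lay below 0 for 7 of 10, 6 of 7 and 6 of 8 measured genes in turn. Dendritic cell genes had 0 of 6 tested at an unadjusted p under 0.05 and a median difference of -0.016.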

How the data were processed

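Gene expression was measured on 7 arrays of sorted microglia. The authors deposited log2 expression values per probe set, made with RMA in version 1.1 of Affymetrix Expression Console, as the submitters' processing notes list. Which build and annotation the array used is not given in the sources used here. Probe annotation named 19572 of 28846 rows, all matched by Entrez identifier to RefSeq (GRCm38.p6), which gave 19505 genes. The probe set with the highest mean was kept per gene, and no further normalization was applied.

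The genotypes were compared with lmFit and eBayes of limma 3.58.1 under R 4.3.3, over 10004 genes above the array median in 3 or more arrays, with Benjamini-Hochberg adjustment. Genes under the filter were fitted without it. The code was tested on simulated data. The members, lists and tests were chosen with earlier results of these data known. Named genes were the 10 members, B2m, 3 defining microglial markers, and per list the tested genes of smallest unadjusted p (4 per pathway list, 3 per cell list); other names are stated as chosen after their values were seen. Gene spans and promoter windows (250 bases before to 50 after the start) came from RefSeq. For arrays, their number limits the precision.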

Additional observations from a re-analysis of the deposited data

Results flagged for a closer look

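Among the knockout arrays, the only group of 4, a value was singled out where its gap to the nearest array, as a share of the group's range, passed Dixon's 95% critical value. Of 56 genes screened 4 met this, and chance gives about 1 in 20. Clec12a was 8.66 in knockout replicate 4 and 7.25 to 7.30 in the other knockout arrays, and it was the only such gene among the 10 markers. Cp was 7.45 in knockout replicate 4, below 8.17 to 8.23 in the others. In knockout replicate 3, Ms4a6c was 9.06 against 9.67 to 9.72, and Batf3, a transcription factor of dendritic cells, was 9.52 against 9.70 to 9.72.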

How the results depend on the processing

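In 18 alternatives 0 of the markers were called. The count at an unadjusted p under 0.05 in limma was 1 as reported. It was 2 with repeated quantile normalization, 0 with centring on array medians, and 0 to 2 when single replicates were left out. It was also 2 with no filter, where Clec12a entered the fit, and 0 with a stricter filter, which left Siglec1 untested. Siglec1, Mrc1, Cd163, Ms4a7, Folr2 and Clec12a kept their sign wherever they were fitted. For Siglec1 and Clec12a, whose genotypes did not overlap, leaving arrays out could not turn the sign. Clec12a had no other alternatives than the 7 fits that each left 1 array out. Signs turned for Pf4 (-0.017), Cbr2 (0.021), Lyve1 (-0.12) and Clec4n (0.12), while Folr2 at 0.11 kept its sign. Pf4 was 0.017 with centring on array medians, and -0.26 to 0.18 with single replicates left out. Cbr2 was -0.0090 with repeated quantile normalization, -0.078 without wildtype replicate 1 and knockout replicate 4 together, -0.035 with the span trend removed, and -0.11 to 0.25 with single replicates left out. With single replicates left out, Lyve1 ran from -0.28 to 0.011 and, without the filter, Clec4n from -0.13 to 0.30. The median over all 10 markers then ran from -0.12 to 0.17. List medians over measured genes moved in the same fits, from 0.087 to 0.30 for the MS4A family and 0.13 to 0.25 for lectin receptors. Without wildtype replicate 1 and knockout replicate 4 together they were 0.13 for the MS4A family, -0.050 for other border macrophage genes (0.013 with all arrays) and 0.035 for scavenger receptors. The causes were not tested. Leaving out that pair, removing the span trend, and leaving replicates out without the filter were chosen after seeing the data. No paired analysis was possible because the labels give no replicate numbers. Signal over background limits Cd163, Lyve1, Siglec1, Folr2, Clec4n and Clec12a most, since few or none of their values exceed the negative control guide.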
